A study of Homo sapiens with 6 samples.

Results

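The interleukin-1 (IL-1) family agonists and the cytokines and enzyme that act beside them were followed here as 10 genes, IL1A, IL1B, IL1RN, IL18, IL36G, IL6, LIF, TNF, CSF2 and PTGS2. They were taken by name and not by level, as the rows of the count table whose Ensembl identifier maps to these symbols. The list was chosen with earlier results of these data known. Each symbol matched 1 row, so the set held 10 of the 57820 rows. The cells were Cal27, a human oral cancer line that came from a tongue tumour, with 3 groups and 2 biological replicates in each. CRNN cells carried a lentivirus with a Cornulin overexpression construct, GFP cells carried the lentiviral GFP control vector, and untreated cells, whose genotype is given as WT, carried neither. The transduced cells received polybrene at 8 µg/ml and were harvested after 48 h, while for untreated cells no polybrene and no harvest time are given, so a comparison with them cannot separate the vector from these. The promoter of the construct, any selection and whether cells were pooled are not given in the sources used here. Total RNA was read from stranded libraries.

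IL-1α and IL-1β, the products of IL1A and IL1B, bind the receptor IL1R1 together with IL1RAP and signal through MYD88 to NF-kB and MAP kinases, and the antagonist encoded by IL1RN occupies the same receptor without signalling. Epithelial cells of the skin and mouth store IL-1α, IL-18 and IL-36γ and release them when injured. IL6, LIF, CSF2, TNF and PTGS2 are classical targets of this signalling, and their messenger RNAs are short-lived because they carry AU-rich elements.

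The libraries held between 11817105 and 28041227 counts, so that 3 counts corresponded to between 0.114 and 0.239 CPM, a scale of counts relative to the library total and its TMM factor. CRNN itself had 21256 and 23062 counts in the CRNN libraries, 59 and 32 in the GFP libraries and 92 and 52 in the untreated libraries. Untreated replicate 1 stood apart on the first principal component, at 67.4 against values between -21.2 and -8.41 for the other 5 libraries. Fold changes of the members against untreated cells are therefore given with and without it. Those of the gene lists further below come only from the fit that holds it. Mitochondrial counts had their lowest share in untreated replicate 1, 22.5% against 25.6% to 29.3%. The part of this in the results was not tested. The 8 epithelial and squamous markers were all detected in every library with at least 10 counts, and their summed level was 5185 and 5944 CPM in CRNN, 4069 and 4278 CPM in GFP and 6190 and 6088 CPM in untreated cells. Single markers differed more than that sum within the untreated pair: KRT17 had 1769 and 113 CPM, SFN 1015 and 305 CPM, CDH1 281 and 116 CPM, KRT5 2370 and 4265 CPM, and KRT14 64.5 and 274 CPM in replicates 1 and 2. The part of these in the results was not tested.

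IL1A (ENSG00000115008.5; GRCh38 chromosome 2, 112773925 to 112784493, minus strand) encodes IL-1α, which acts from the cell surface and from damaged cells. It had 31 and 28 counts in the CRNN libraries, 59 and 19 in the GFP libraries, and 303 and 25 in the untreated libraries. As levels these were 1.40 and 1.25 CPM in CRNN, 3.06 and 1.51 CPM in GFP, and 11.6 and 1.00 CPM in untreated cells. Untreated replicate 1 lay above all other libraries, GFP replicate 1 came next, and the CRNN pair lay between the 2 untreated libraries.

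IL1B (ENSG00000125538.7; chromosome 2, 112829751 to 112836816, minus strand) encodes IL-1β, which is cleaved by caspase-1 before release. Its counts were 281 and 302 in CRNN, 311 and 139 in GFP, and 2282 and 305 in the untreated pair, or 12.7 and 13.4 CPM, 16.1 and 11.1 CPM, and 87.1 and 12.2 CPM. The 5 libraries other than untreated replicate 1 lay close together, between 11.1 and 16.1 CPM.

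IL1RN (ENSG00000136689.14; chromosome 2, 113099315 to 113134016, plus strand), the receptor antagonist, had another order. It had 107 and 89 counts in CRNN, 158 and 25 in GFP, and 102 and 83 in the untreated pair, or 4.84 and 3.96 CPM, 8.19 and 1.99 CPM, and 3.89 and 3.32 CPM. The highest and the lowest value were both in GFP, and the untreated pair differed by a factor of 1.17, with a 95% counting interval of 0.869 to 1.59.

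IL18 (ENSG00000150782.7; chromosome 11, 112143253 to 112164096, minus strand), a further family member that caspase-1 activates, had 252 and 325 counts in CRNN, 249 and 131 in GFP, and 753 and 272 in the untreated pair. Its levels were 11.4 and 14.5 CPM, 12.9 and 10.4 CPM, and 28.7 and 10.9 CPM. Untreated replicate 1 was again the highest library, and the other 5 overlapped.

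IL36G (ENSG00000136688.6; chromosome 2, 112973203 to 112985658, plus strand), which encodes IL-36γ, was close to the limit of detection. It had 3 and 1 counts in CRNN, 14 and 0 in GFP, and 33 and 2 in the untreated pair, so that only GFP replicate 1 and untreated replicate 1 had more than 3 counts. It passed the filter on low counts only through these libraries. Its part in the counts of members given below, by library and by comparison, therefore comes in part from the filter. With IL1A, IL1B and IL1RN, IL36G belongs to a cluster of 9 IL-1 family genes on chromosome 2, between 112773925 and 113134016, of which 5 passed the filter on low counts. The fifth was IL36RN, the antagonist of IL-36, with 20 and 43 counts in CRNN, 37 and 13 in GFP, and 22 and 42 in the untreated pair. IL37, IL36A, IL36B and IL1F10 had between 0 and 6 counts in every library.

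IL6 (ENSG00000136244.7; chromosome 7, 22725884 to 22732002, plus strand), a cytokine that signals through gp130 and STAT3, had 21 and 21 counts in CRNN, 81 and 9 in GFP, and 187 and 25 in the untreated pair. Its levels were 0.951 and 0.935 CPM, 4.2 and 0.717 CPM, and 7.13 and 1.00 CPM. Both CRNN libraries lay just below the lower untreated library, and the GFP pair spanned them.

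LIF (ENSG00000128342.4; chromosome 22, 30240453 to 30246759, minus strand), a gp130 cytokine of the IL-6 family, was the most abundant of the 10. It had 397 and 382 counts in CRNN, 1024 and 179 in GFP, and 9484 and 473 in the untreated pair, or 18 and 17.0 CPM, 53.1 and 14.3 CPM, and 362 and 18.9 CPM. The order of the libraries was that of IL6, with untreated replicate 1 highest, GFP replicate 1 next and GFP replicate 2 lowest.

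TNF (ENSG00000232810.3; chromosome 6, 31575565 to 31578336, plus strand), the founding cytokine of its family, had 4 and 2 counts in CRNN, 7 and 3 in GFP, and 8 and 2 in the untreated pair. It was the single member that did not pass the filter, and no difference was detectable at this depth. CSF2 (ENSG00000164400.4; chromosome 5, 132073789 to 132076170, plus strand), which encodes GM-CSF, had 6 and 10 counts in CRNN, 18 and 0 in GFP, and 23 and 2 in the untreated pair. A count of 0 in GFP replicate 2, the shallowest library, allows up to 0.239 CPM.

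PTGS2 (ENSG00000073756.7; chromosome 1, 186671791 to 186680922, minus strand) encodes cyclooxygenase-2, the inducible enzyme of prostaglandin synthesis. It had 24 and 29 counts in CRNN, 8 and 5 in GFP, and 721 and 10 in the untreated pair, or 1.09 and 1.29 CPM, 0.415 and 0.398 CPM, and 27.5 and 0.400 CPM. The 2 GFP libraries and untreated replicate 2 were nearly equal, the CRNN pair lay above them, and untreated replicate 1 lay far above all.

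**Figure D1:**
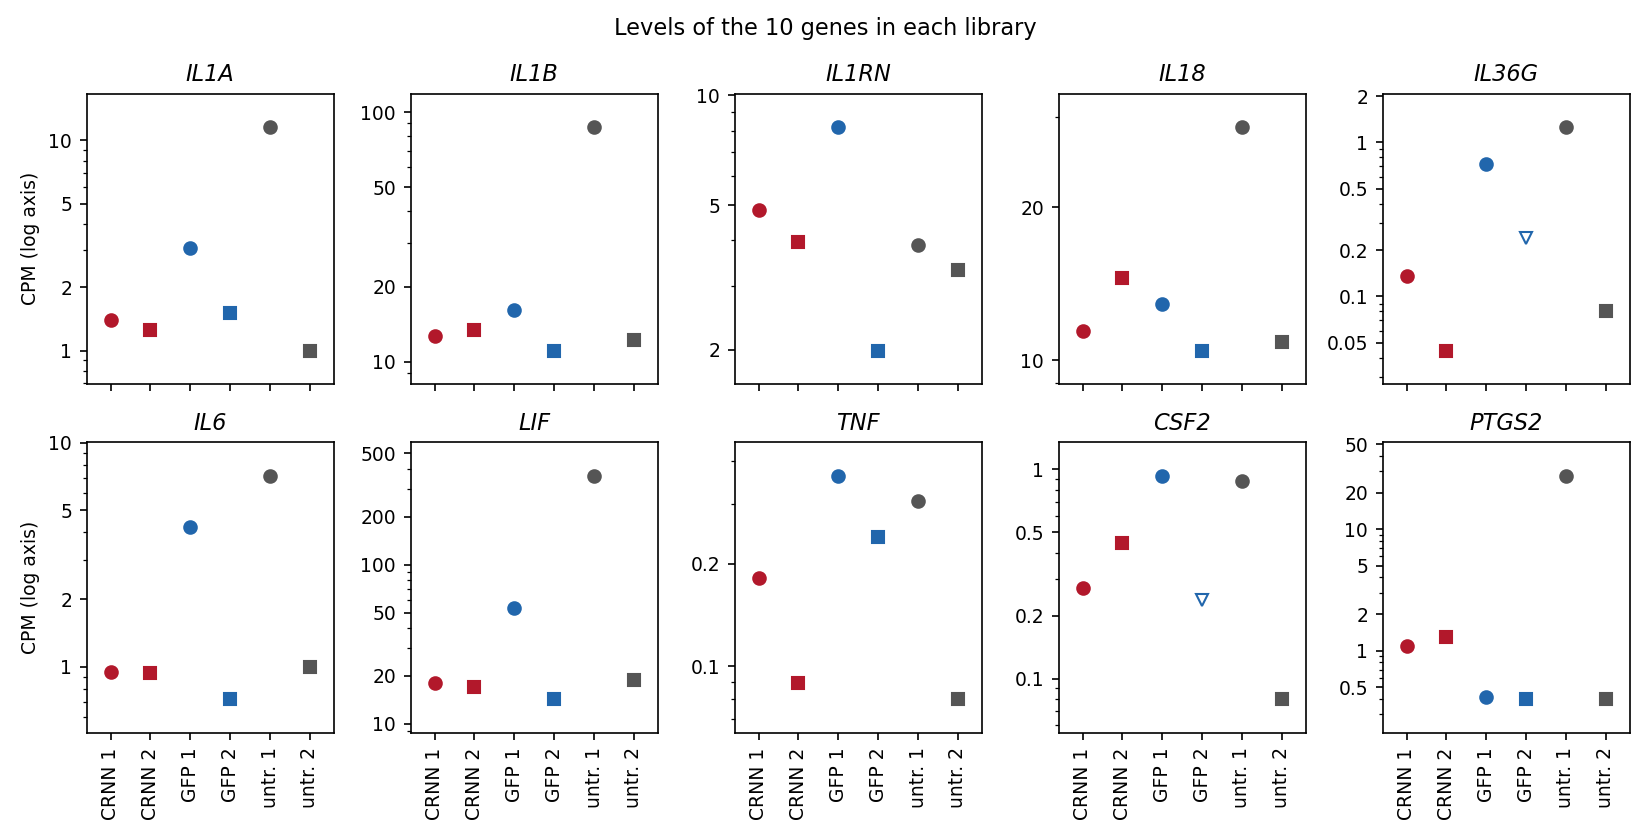
Level of each gene in each library, in CPM on a log axis, with CRNN in red, GFP in blue and untreated cells in grey (circles, replicate 1; squares, replicate 2). Open triangles mark a count of 0, drawn at the level of 3 counts; untreated replicate 1 is the highest library for IL1A, IL1B, IL18, IL36G, IL6, LIF and PTGS2.

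Per kilobase of exon (GENCODE 44, which may not be the annotation used for counting), LIF had the highest mean level over the 6 libraries, 20.8 CPM per kb, followed by IL1B at 8.45, IL18 at 5.68 and IL1A at 1.63 CPM per kb. IL1RN had 1.17, PTGS2 0.945, IL6 0.576, CSF2 0.551, IL36G 0.273 and TNF 0.125 CPM per kb. This order rests in part on untreated replicate 1. There PTGS2 had 5.02 and IL1A 5.73 CPM per kb, against 0.0727 to 0.235 and 0.496 to 1.52 CPM per kb in the other 5 libraries. In those 5 libraries IL1RN had 0.534 to 2.19, IL6 0.166 to 0.972 and CSF2 0 to 1.18 CPM per kb, so that IL1A overlapped IL1RN, and PTGS2 lay below IL1RN and overlapped IL6 and CSF2. The first 3 were not separable outside untreated replicate 1. There LIF lay between 3.68 and 13.7, IL1B between 3.68 and 5.36 and IL18 between 4.01 and 5.55 CPM per kb. In untreated replicate 1 itself LIF had 93.5, IL1B 28.9 and IL18 11 CPM per kb.

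The untreated libraries differed from each other in most of the set. LIF was 19.1-fold higher in replicate 1 than in replicate 2 (95% counting interval 17.4 to 21.0), PTGS2 68.8-fold (37.2 to 144), IL1A 11.6-fold (7.68 to 18.2), IL1B 7.14-fold (6.33 to 8.07) and IL6 7.14-fold (4.69 to 11.3). IL36G and CSF2 were 15.7-fold and 11-fold higher, with intervals of 4.03 to 135 and 2.71 to 96.0 because replicate 2 held 2 counts of each. IL18 was 2.64-fold higher (2.30 to 3.05), and for TNF, at 3.82-fold, the interval of 0.762 to 36.9 included no difference. Of the 9 genes that passed the filter, 7 were more than 4-fold higher in replicate 1, against 2.6% of the 16396 genes tested, and 0 were more than 4-fold lower, against 2.57%. The 7 include IL36G, which passed the filter only through untreated replicate 1 and GFP replicate 1, where it was high. These intervals cover counting error only, compare 2 libraries and not 2 conditions, and rest on reads that are not independent molecules. In bulk RNA, more cells that express a gene and more RNA per cell cannot be told apart.

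The GFP libraries also differed from each other, in part for other genes. IL6 was 5.85-fold higher in GFP replicate 1 than in GFP replicate 2 (2.94 to 13.3), IL1RN 4.11-fold (2.68 to 6.54), LIF 3.72-fold (3.17 to 4.39) and IL1A 2.02-fold (1.19 to 3.59). IL36G and CSF2, with a count of 0 in GFP replicate 2, were at least 3.04-fold and at least 3.90-fold higher in replicate 1, taking 3 counts as the floor of that library. Of the 9 genes, 6 were more than 2-fold higher in GFP replicate 1, against 8.51% of all genes tested. IL36G is among the 6, with the same limit from the filter. PTGS2 was not among them, at 1.04-fold (0.300 to 4.04), nor were IL1B at 1.46-fold (1.19 to 1.79) and IL18 at 1.24-fold (0.997 to 1.54). IL1RN, at 4.11-fold here, was 1.17-fold in the untreated pair. Within CRNN the counting interval of the ratio excluded 1 for IL18 alone of the 10 genes, where replicate 1 had 0.788 of the level of replicate 2 (0.666 to 0.932).

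Over the 9 genes, the mean level centred per gene on the log2 CPM scale was -0.37 and -0.38 in CRNN, 0.52 and -1.11 in GFP, and 2.12 and -0.78 in the untreated pair. Untreated replicate 1 was the highest of the 6 libraries for 7 of the 9 genes, against 27.1% of all genes tested. IL36G, which passed the filter through that library and GFP replicate 1 alone, is among the 7. GFP replicate 1 was the highest for the others, IL1RN and CSF2, against 23.2%. The map of centred levels shows PTGS2 at 4.37 and LIF at 3.40 in untreated replicate 1, with IL1RN at -0.04 there.

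**Figure D2:**
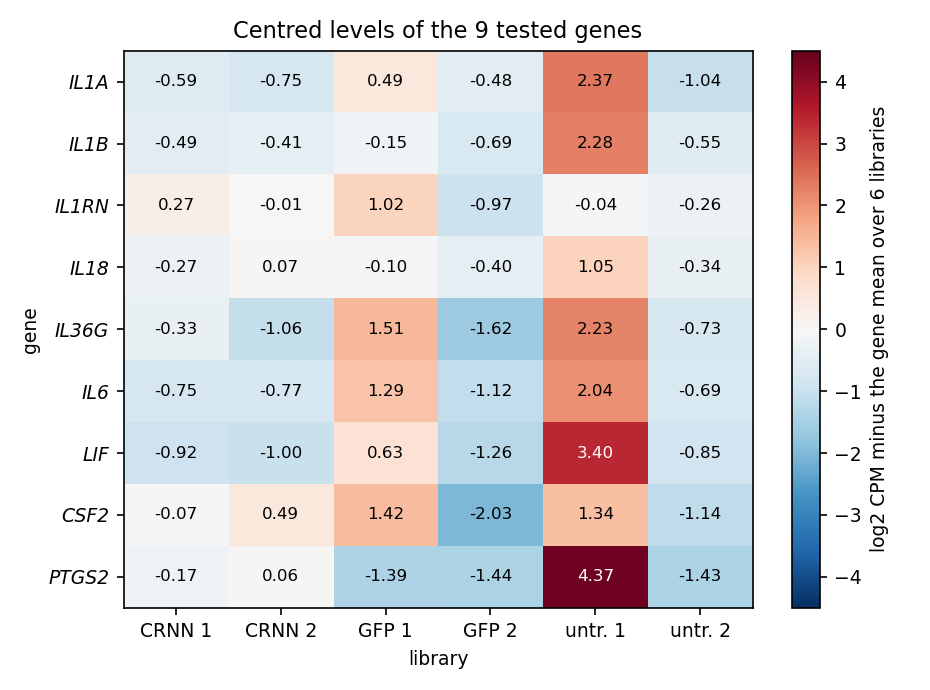
Log2 CPM of the 9 tested genes (rows) in each library (columns), minus the gene's mean over the 6 libraries; red is above and blue below that mean. The column of untreated replicate 1 is red for every gene but IL1RN, and GFP replicate 2 is below the mean for all 9.

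The ratio of agonist to antagonist counts does not depend on the scaling of a library, but it does depend on the lengths of the genes. IL1B counts over IL1RN counts were 2.63 (95% counting interval 2.09 to 3.31) and 3.39 (2.67 to 4.35) in CRNN, 1.97 (1.62 to 2.40) and 5.56 (3.61 to 8.89) in GFP, and 22.4 (18.3 to 27.6) and 3.67 (2.87 to 4.74) in the untreated pair. IL1A counts over IL1RN counts were 0.290 and 0.315 in CRNN, 0.373 and 0.760 in GFP, and 2.97 and 0.301 in the untreated pair. IL1A counts exceeded IL1RN counts in untreated replicate 1 only, where the interval ran from 2.37 to 3.76. In GFP replicate 2 the interval of 0.396 to 1.44 included 1. Divided by exon length, the IL1A to IL1RN ratio was 5.50 in untreated replicate 1 and 1.41 in GFP replicate 2. It lay between 0.536 and 0.691 in the other libraries. The CRNN values lay within the range of the GFP pair for IL1B and below it for IL1A, and no test of these ratios was run with 2 libraries a group.

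**Figure D3:**
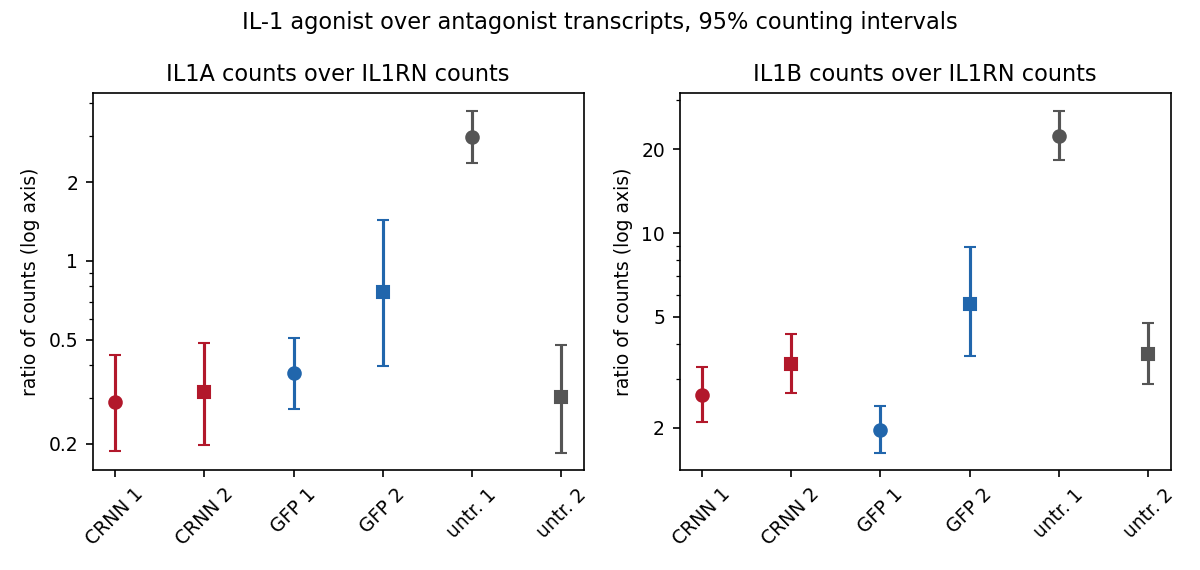
Counts of IL1A (left) and IL1B (right) divided by counts of IL1RN in each library, on a log axis, with 95% exact binomial intervals that cover counting error only. Untreated replicate 1, at 2.97 and 22.4, lies above the other 5 libraries in both panels.

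The promoter windows of 5 genes are shown because the untreated pair was furthest apart for PTGS2, because IL6 and LIF ordered the libraries alike and a window was listed for IL6, and because IL1A and IL1B stood apart in that pair from their antagonist IL1RN. Each is the RefSeq window of 250 bases before to 50 bases after a transcription start (GRCh38.p14), printed 5′ to 3′ on the strand of the gene. Capitals mark matches, on both strands, to TGANTCA (AP-1), the NF-kB motif (GGG and CC around 5 bases of any kind), TTGCNNCAA (C/EBP), TGACGT (cyclic AMP response element) and the TATA box (its letters TATAAA). The windows are PTGS2 at chr1:186680374-186680673 (minus strand), IL6 at chr7:22726950-22727249 (plus), window 2 of 2 of IL1A at chr2:112784351-112784650 (minus), IL1B at chr2:112836730-112837029 (minus) and window 3 of 3 of IL1RN at chr2:113127348-113127647 (plus).
PTGS2: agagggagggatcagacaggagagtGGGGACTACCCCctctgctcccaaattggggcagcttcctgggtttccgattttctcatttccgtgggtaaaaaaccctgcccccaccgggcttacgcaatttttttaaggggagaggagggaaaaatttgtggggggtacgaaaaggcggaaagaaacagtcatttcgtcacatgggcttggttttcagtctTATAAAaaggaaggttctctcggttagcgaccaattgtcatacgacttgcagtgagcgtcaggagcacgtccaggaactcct
IL6: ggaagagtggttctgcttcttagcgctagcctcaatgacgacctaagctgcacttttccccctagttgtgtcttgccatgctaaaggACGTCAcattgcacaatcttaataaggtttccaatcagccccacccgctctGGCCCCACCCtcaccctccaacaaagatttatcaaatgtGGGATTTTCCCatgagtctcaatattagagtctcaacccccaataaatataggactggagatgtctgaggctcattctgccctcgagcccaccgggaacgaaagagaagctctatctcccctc
IL1A: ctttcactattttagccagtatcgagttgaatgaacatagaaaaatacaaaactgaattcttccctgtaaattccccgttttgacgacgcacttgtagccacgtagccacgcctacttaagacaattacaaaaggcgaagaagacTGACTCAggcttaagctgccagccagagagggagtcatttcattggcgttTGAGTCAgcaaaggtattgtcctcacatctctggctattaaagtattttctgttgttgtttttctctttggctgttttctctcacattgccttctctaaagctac
IL1B: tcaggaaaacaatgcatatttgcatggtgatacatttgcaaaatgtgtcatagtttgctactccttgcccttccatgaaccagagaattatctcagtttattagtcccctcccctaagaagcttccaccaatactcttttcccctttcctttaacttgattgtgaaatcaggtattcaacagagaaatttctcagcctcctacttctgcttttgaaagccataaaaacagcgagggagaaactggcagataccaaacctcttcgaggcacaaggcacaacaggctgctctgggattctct
IL1RN: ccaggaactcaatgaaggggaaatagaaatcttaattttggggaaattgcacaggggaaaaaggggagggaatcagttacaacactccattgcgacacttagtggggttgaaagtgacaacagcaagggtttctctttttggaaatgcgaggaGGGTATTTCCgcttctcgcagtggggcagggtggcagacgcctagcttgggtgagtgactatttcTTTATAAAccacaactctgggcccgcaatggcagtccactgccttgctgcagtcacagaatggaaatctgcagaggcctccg

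The NF-kB letters matched in the windows of PTGS2, IL6, TNF, CSF2 and IL1RN, and in neither window of IL1A and not in those of IL1B and IL36G. They occur in 58.7% of 35116 promoter windows, so a match says little by itself. In PTGS2 the 3 matches overlap, at positions -225, -224 and -223 from the transcription start, and in IL6 a pair overlaps at -73 and -72. The AP-1 letters, present in 7.71% of all windows, stood at -105 and -55 in the IL1A window shown, at -12 and 39 in the other IL1A window and at -223 in window 1 of IL1RN. The element for cyclic AMP, in 7.98% of windows, was in IL6 at -163, and a TATA box, in 11.5%, was in PTGS2 at -32, TNF at -29, window 1 of IL1A at -239 and, as an overlapping pair on the 2 strands, the printed IL1RN window at -32 and -30. The letters TTGCNNCAA, searched for C/EBP and present in 1.98% of windows, were in none of these windows. Other spellings and spacings of the C/EBP, cyclic AMP and other elements were not searched, so no absence of such elements follows. Whether any of these letters bear on the levels in the untreated pair was not tested. A match is not a binding site. No window was listed for IL18 and LIF.

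Cornulin cells were set against GFP cells to ask what differs with the insert. None of the 9 genes passed (edgeR's quasi-likelihood test, Benjamini-Hochberg adjusted p = 0.999 for each), where 0.0183% of all 16396 genes tested were called, and none passed by DESeq2 or limma-voom. None had an unadjusted p under 0.05, as 1.49% of all genes did with a higher and 2.9% with a lower level. The log2 fold changes, CRNN over GFP, were negative for 7, against 50.1% of all genes, and positive for 2, against 49.9%. Their median was -0.51 against -0.0017 for all genes tested. IL6 had -1.42 (SE 0.96), LIF -0.95 (SE 1.03) and IL1A -0.81 (SE 0.92). Those of IL1B, IL1RN and IL18 were -0.06 (SE 0.70), -0.23 (SE 0.56) and 0.15 (SE 0.43), with 95% intervals of -1.65 to 1.53, -1.49 to 1.03 and -0.83 to 1.13.

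PTGS2 was the largest positive value among the 9, at 1.53 (SE 1.56; 95% interval -2.0 to 5.06; adjusted p = 0.999 by edgeR). Both CRNN libraries lay above both GFP libraries, which held for 1 of 9 members against 19.4% of all genes tested. Both CRNN libraries lay below both GFP libraries for IL1A, again 1 of 9 against 18.7%. Fitted without untreated replicate 1, PTGS2 had an unadjusted p of 0.0160 (adjusted p = 0.621, edgeR), and without untreated replicate 2 an unadjusted p of 0.00415 (adjusted p = 0.473). On the lower side, IL6 had -1.44 without untreated replicate 2 (unadjusted p = 0.0495, adjusted p = 0.689, edgeR) and IL1RN had -0.90 without GFP replicate 2 (unadjusted p = 0.0396, adjusted p = 0.566). The value of PTGS2 lay between 1.40 and 1.65 with any library left out. Without GFP replicate 1 the median of the members was 0.39, and IL6, LIF and IL1RN had 0.39, 0.29 and 1.14, each positive, where without GFP replicate 2 the median was -1.20. Without GFP replicate 1 the fold changes of IL36G and CSF2 are fits against a count of 0 and are no measure of size.

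**Figure D4:**
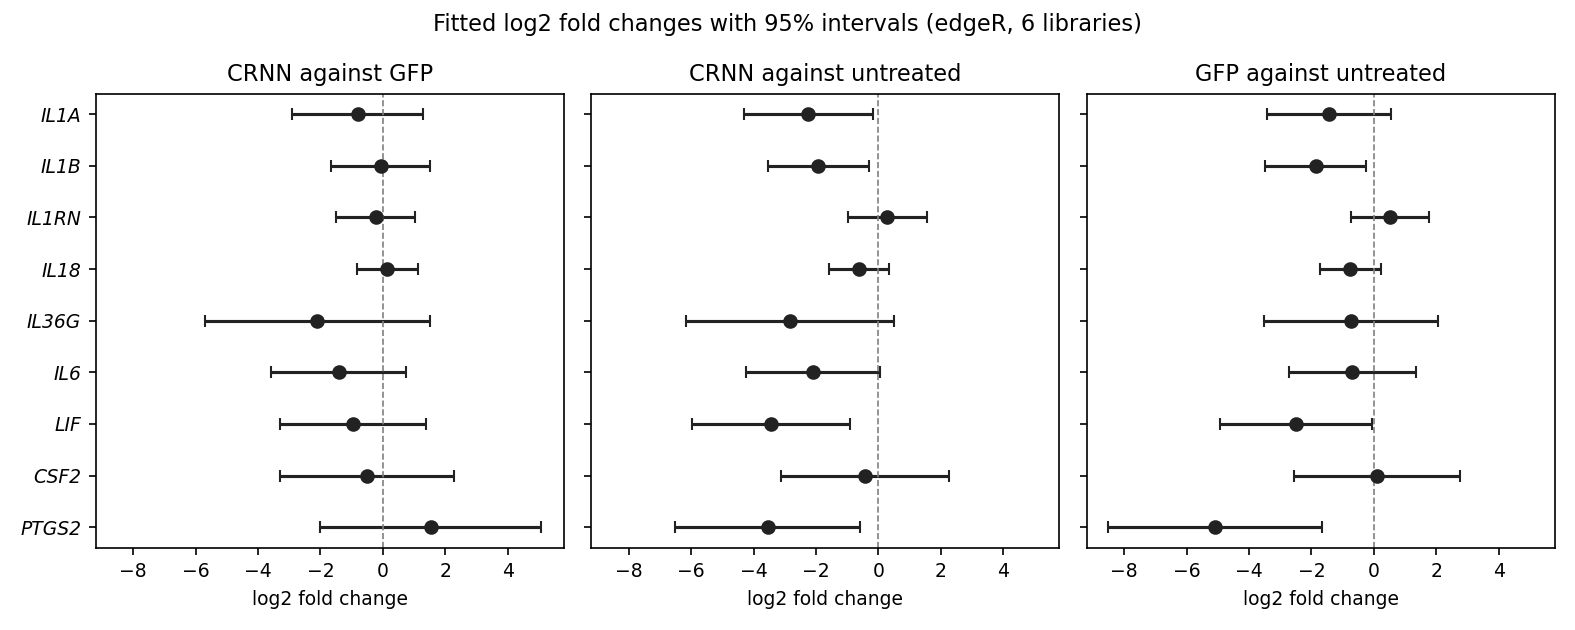
Log2 fold changes of the 9 tested genes (rows) in the 3 comparisons, first group over second, from the edgeR fit of all 6 libraries (n = 2 a group); bars are 95% intervals. All intervals cross 0 for CRNN against GFP, and those of PTGS2, LIF and IL1B lie below 0 in both comparisons with untreated cells.

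Against untreated cells, CRNN cells had lower fitted levels of 8 of the 9 genes, against 50.9% of all genes, and a higher one of 1, against 49.1%. None passed (edgeR; adjusted p between 0.989 and 0.995), where 0.0061% of all genes tested were called. DESeq2 and limma-voom called none. The median log2 fold change was -2.10, against -0.0091 for all genes. PTGS2 had -3.55 (SE 1.31), LIF -3.44 (SE 1.12), IL1A -2.24 (SE 0.91) and IL1B -1.92 (SE 0.71), the 4 members with an unadjusted p under 0.05, against 2.96% of all genes in that direction, and 0 had one on the higher side, against 1.52%. IL1RN was the exception, at 0.29 (SE 0.55), and both CRNN libraries lay above both untreated libraries for it, as for 18.7% of all genes. IL6 and LIF lay below in both CRNN libraries, 2 of 9 members against 18.4% of all genes.

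These values depended on which untreated library was in the fit. Without untreated replicate 1 the median was 0.25 and none passed, with IL1A at 0.40, IL1B at 0.10, IL6 at -0.08, LIF at -0.11 and PTGS2 at 1.56 (unadjusted p = 0.0328 and adjusted p = 1, edgeR). Without untreated replicate 2 the median was -2.90, and IL1A, IL1B, IL6, LIF and PTGS2 were called lower in CRNN, 5 of 9 members where 3.28% of all genes were called lower. In that fit PTGS2 had -4.51 (adjusted p = 3.27e-04) and LIF -4.36 (adjusted p = 0.00399) by edgeR. A single untreated library then stands for its group and is taken to vary as the other groups do. Without a filter on low counts, IL1B at -1.94, LIF at -3.47 and PTGS2 at -3.57 were called lower by edgeR (adjusted p = 0.0294, 0.00143 and 0.00841), 3 of 10 members where 0.419% of 33425 genes were called lower.

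GFP cells, set against untreated cells to ask what differs with the vector, shared the untreated libraries with the comparison above. None of the 9 genes passed (edgeR; adjusted p between 0.711 and 0.986; none by DESeq2 or limma-voom), and 0% of all genes tested were called. Without adjustment 1137 genes had a p under 0.05, and DESeq2 called 29 and limma-voom 0. The median was -0.76, against -0.013 for all genes, with 7 negative, against 51.1% of all genes, and 2 positive, against 48.9%. PTGS2 had -5.08 (SE 1.51), LIF -2.49 (SE 1.07) and IL1B -1.86 (SE 0.71), the 3 with an unadjusted p under 0.05, against 2.9% of all genes in that direction, and 0 were on the higher side, against 4.03%. IL1RN had 0.52 (SE 0.56) and IL6 -0.69 (SE 0.89), and the GFP and untreated libraries overlapped for every one of the 9, where GFP lay above in 16.1% and below in 15.5% of all genes.

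Without untreated replicate 1 the median of GFP against untreated was 0.84 and every member had a positive value, from 0.03 for PTGS2 and 0.11 for IL18 to 1.35 for IL6, 2.27 for IL36G and 2.62 for CSF2, none of them called. Without untreated replicate 2 the median was -1.59 and 5 of 9 members were called lower (IL1A, IL1B, IL18, LIF and PTGS2), where 3.14% of all genes were. Without GFP replicate 1 the median was -2.50. Without a filter IL1B, LIF and PTGS2 were called lower here too (adjusted p = 0.0305, 0.0251 and 7.18e-04 by edgeR), 3 of 10 members where 0.455% of genes were.

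**Figure D5:**
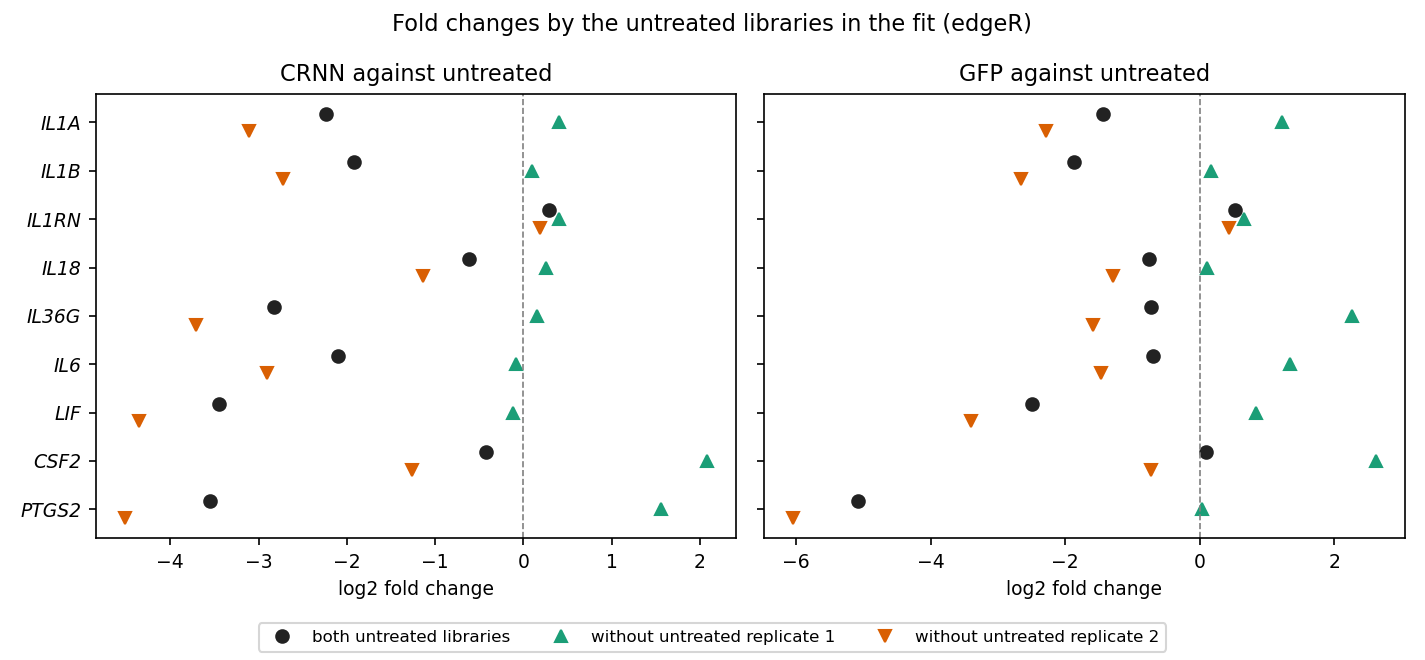
Log2 fold changes of the 9 tested genes (rows) for CRNN (left) and GFP (right) against untreated cells, fitted with both untreated libraries (circles), without replicate 1 (upward triangles) and without replicate 2 (downward triangles). The medians are -2.10, 0.25 and -2.90 on the left and -0.76, 0.84 and -1.59 on the right.

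Members differed in how alike their profiles were over the 6 libraries, measured as the root mean square difference of log2 CPM after centring, a description that gives untreated replicate 1 much weight. The closest pairs were IL36G with IL6 at 0.32 and IL1A with IL1B at 0.37. IL36G had 3 and 1 counts in CRNN, 0 in GFP replicate 2 and 2 in untreated replicate 2. There the prior count of 2, added before taking logs, set much of its level. Its distances, also to the genes named below, therefore rest in part on that floor. CSF2, with 0 and 2 counts in GFP replicate 2 and untreated replicate 2, has the same limit. IL1B stood further from its antagonist IL1RN, at 1.13, than from IL1A, and IL1RN and PTGS2 were the furthest apart, at 2.12. The search covered 12690 other named genes whose log2 CPM averaged 0 or more. The nearest to IL1A was SOX9, a transcription factor of epithelial progenitors, at 0.15, followed by PLXNA2 at 0.15 and MICAL2 at 0.17. The nearest to IL1B was MYO1E, an unconventional myosin, at 0.12, followed by CRISPLD2 and TUFT1, both at 0.14. IL6 was nearest to KRT81, a hair keratin, at 0.15, and to DUSP4, a MAP kinase phosphatase, at 0.24, and then to S100A9 at 0.25. LIF was nearest to SAMD4A at 0.17 and to HBEGF, a ligand of EGFR, at 0.19, and then to SEMA7A, a semaphorin, at 0.25. IL36G was nearest to S100A9, a subunit of calprotectin, at 0.25, then KRT81 at 0.34 and the MAP kinase phosphatase gene DUSP6 at 0.44. IL18 was nearest to RRAS2, a Ras-related GTPase, SELENOS and KATNBL1, each at 0.09. PTGS2 had no close match, with GABRP at 0.57 and the chemokine gene CXCL8 at 0.58, followed by RELN at 0.60. CSF2 was nearest to SLPI, a secreted protease inhibitor, at 0.46, followed by ACTBP9 at 0.51 and ADAM8, a metalloprotease, at 0.52. IL1RN was nearest to TERC, the RNA of telomerase, at 0.19, YEATS2-AS1 came at 0.21, and KLK7, a kallikrein, came at 0.22.

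Receptors and adaptors of IL-1 and IL-18 gave 18 tested genes of 20, and 0 passed in any comparison (edgeR). At an unadjusted p under 0.05 (edgeR), 0 stood out in CRNN against GFP, 1 higher and 1 lower in CRNN against untreated, and 4 lower in GFP against untreated cells. Of all genes tested, 1.49% were higher and 2.9% lower, then 1.52% and 2.96%, then 4.03% and 2.9%, in that order. The same shares apply to the lists below. For this list and those, values against untreated cells are not given without untreated replicate 1. The median log2 fold change of the 18 genes was 0.06 for CRNN against GFP, -0.25 for CRNN against untreated and -0.24 for GFP against untreated cells. IL1R1, the signalling receptor, had 255 and 302 counts in CRNN, 57 and 135 in GFP, and 2501 and 196 in the untreated pair, or 11.5 and 13.4 CPM, 2.95 and 10.8 CPM, and 95.4 and 7.84 CPM. Unlike IL6 and LIF it was lower in GFP replicate 1 than in GFP replicate 2. IL1RL2, the receptor of IL-36, had 85 and 95 counts in CRNN, 80 and 46 in GFP, and 336 and 109 in the untreated pair. IRAK3, a kinase-like inhibitor of this pathway, had 3.58 and 2.67 CPM in CRNN, 1.40 and 2.39 CPM in GFP, and 0.916 and 1.60 CPM in untreated cells, at 1.31 for CRNN over untreated (SE 0.46; adjusted p = 0.989, edgeR). IL18BP, which binds and blocks IL-18, had 4.44 and 2.98 CPM in CRNN and 7.20 and 5.42 CPM in GFP, a log2 fold change of -0.77 (SE 0.36). IL1R2, the decoy receptor of IL-1, had 1.24 for CRNN over GFP (SE 0.93).

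Of the genes of the inflammasome and of cytokine processing, 11 of 14 were tested and 0 passed (edgeR), with 1 gene, AIM2, at an unadjusted p under 0.05 over the 3 comparisons and medians of 0.28 for CRNN against GFP, 0.01 for CRNN against untreated and -0.04 for GFP against untreated cells. AIM2, a sensor of cytosolic DNA, had 264 and 285 counts in CRNN, 36 and 88 in GFP, and 244 and 162 in the untreated pair. Its levels were 12.0 and 12.7 CPM in CRNN and 1.87 and 7.01 CPM in GFP, with a log2 fold change of 1.5 (SE 0.53; unadjusted p = 0.0206 and adjusted p = 0.999, edgeR). CTSS, a cysteine protease, had 5.34 and 6.06 CPM in CRNN, 0.933 and 4.70 CPM in GFP, and 9.46 and 3.84 CPM in untreated cells. The sensor gene NLRP1 had -0.61 for CRNN over GFP (SE 0.45), and NINJ1, which acts in membrane rupture, had -0.38 for CRNN over untreated (SE 0.29). PYCARD, the inflammasome adaptor, had 17.8 and 18.9 CPM in CRNN, 15.5 and 13.7 CPM in GFP, and 13.7 and 13.6 CPM in untreated cells. In untreated replicate 1 the 14 genes summed to 1032 CPM, against 1035 CPM in replicate 2. The CRNN pair lay further apart, with sums of 1099 and 1147 CPM. CAPN1 was the largest part of each untreated sum, with 720 CPM in replicate 1 against 776 CPM in replicate 2. CASP4 went the other way, with 89.9 CPM in replicate 1 against 66.0 CPM in replicate 2, as did CTSS. The near-equal sums therefore do not show that each gene was alike in the untreated pair.

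IL-6 and LIF family signalling gave 12 tested genes of 14, with 0 passing (edgeR) and medians of -0.13 for CRNN against GFP, -0.10 for CRNN against untreated and -0.26 for GFP against untreated cells. Unadjusted, 0, 2 and 1 genes had a p under 0.05 in that order, all on the lower side. A pair of cytokines in it were, like LIF, highest in untreated replicate 1 and next in GFP replicate 1, with another order below. CLCF1, a gp130 cytokine, had 4.93 and 3.96 CPM in CRNN, 9.43 and 4.14 CPM in GFP, and 59.2 and 4.72 CPM in untreated cells. IL11, another gp130 cytokine, had 12 and 14 counts in CRNN, 43 and 10 in GFP, and 198 and 9 in the untreated pair. IL6ST, which is gp130 itself, had 58.2 and 54.9 CPM in CRNN, 41.2 and 83.4 CPM in GFP, and 117 and 71.6 CPM in untreated cells. The kinase genes JAK2 and TYK2 had -0.45 (SE 0.39) and -0.24 (SE 0.26) for CRNN over GFP.

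TNF and GM-CSF signalling gave 10 tested genes of 13, of which 0 passed (edgeR; unadjusted, 0, 1 and 1 genes, both lower), with medians of -0.02, -0.28 and -0.33 in the same order. TNFAIP3, which ends NF-kB signalling, had 9.28 and 8.28 CPM in CRNN, 14.9 and 9.0 CPM in GFP, and 290 and 5.32 CPM in untreated cells. The adaptor gene TRAF2 had -0.43 (SE 0.28), CSF1, which encodes M-CSF, 0.53 (SE 0.35) and BIRC3, a ubiquitin ligase of this pathway, 0.50 (SE 0.47) for CRNN over GFP. TRAF1 and ADAM17, the sheddase of TNF, had -0.64 (SE 0.35) and -0.41 (SE 0.30) for CRNN over untreated. Prostaglandin synthesis and receptors gave 9 tested genes of 14, of which 0 passed (edgeR; unadjusted, 0, 1 and 1 genes, both lower), with medians of -0.04, -0.09 and -0.18. PTGS1, the constitutive cyclooxygenase, had 25.6 and 24.4 CPM in CRNN, 32.6 and 26.5 CPM in GFP, and 23.2 and 28.1 CPM in untreated cells, a spread much smaller than that of PTGS2. PTGER4, a receptor of prostaglandin E2, had 3.53 and 3.83 CPM in CRNN, 4.77 and 2.71 CPM in GFP, and 30.7 and 2.84 CPM in untreated cells. PLA2G4A, the phospholipase that frees arachidonic acid, had 0.52 (SE 0.57) for CRNN over GFP and 0.71 (SE 0.56) for CRNN over untreated, and the transporter gene ABCC4 had -0.18 (SE 0.25) and -0.37 (SE 0.25).

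Factors that bind AU-rich elements or degrade such messengers were tested in full, 12 of 12, and 0 passed (edgeR; unadjusted, 1 lower, 0, and 1 higher), with medians of -0.09, -0.07 and 0.03. HNRNPD, which binds these elements, had 34.0 and 35.4 CPM in CRNN, 42.2 and 88.7 CPM in GFP, and 36.0 and 32.3 CPM in untreated cells, with -0.92 for CRNN over GFP (SE 0.35; adjusted p = 0.999, edgeR). The decay factor genes KHSRP and ZFP36L2 had -0.30 (SE 0.25) and -0.34 (SE 0.37) for CRNN over GFP. For CRNN over untreated, ZFP36L2 had -0.44 (SE 0.36), ZFP36L1 0.28 (SE 0.25) and TIAL1, a translational repressor, -0.25 (SE 0.25). The summed level of the 12 genes was 698 and 696 CPM in CRNN, 742 and 822 CPM in GFP, and 787 and 688 CPM in untreated cells.

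Markers of other cell types were read in the same libraries. Of 7 leukocyte and myeloid markers 3 or 4 had at least 10 counts in each library. The summed level of the 7 was 11.6 and 9.35 CPM in CRNN, 8.60 and 8.29 CPM in GFP, and 7.32 and 7.80 CPM in untreated cells, with untreated replicate 1 lowest. CD14 was the largest part of each sum, at 8.33 and 7.21 CPM in CRNN, 4.41 and 4.22 CPM in GFP, and 5.26 and 5.52 CPM in untreated cells. PTPRC had between 0.223 and 0.877 CPM. The 6 fibroblast markers summed to between 3.96 and 9.08 CPM. Of 4 endothelial markers 3 were in the table, at 8.10 and 10.3 CPM in CRNN, 8.03 and 13.9 CPM in GFP, and 53.0 and 13.0 CPM in untreated cells. Nearly all of the value in untreated replicate 1 was CDH5, at 49.9 CPM, while KDR had 0 or 1 counts in every library. The part of these markers in the results was not tested.

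Some members overlap other annotated genes, and the strand setting of the counting is not stated, so reads may be shared between partners. LIF overlaps LIF-AS1 and LIF-AS2, which had up to 46 and 145 counts, both in untreated replicate 1, beside 9484 of LIF there. IL6 overlaps IL6-AS1, with 18 counts in untreated replicate 1 beside 187 of IL6, and PTGS2 overlaps PACERR, with 4 counts beside 721.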

How the data were processed

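Counts, that is raw reads per gene, were deposited for 57820 versioned Ensembl identifiers in 6 libraries, with no normalization by the authors per the file headers and values. Per the submitters' processing notes the tools were STAR 2.6, HTSeq 0.6.1, edgeR, bcl2fastq and FastQC 0.11.7, and the builds hg19, GRCh37 and GRCh38, with no roles given. The annotation and strand setting are not given in the sources used here. All libraries carry batch 1 per the labels.

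Names and coordinates came from GENCODE 44 (GRCh38), which named 51996 identifiers, matched without version. Genes were kept by filterByExpr (minimum count 10, minimum total 15), leaving 16396. All 6 libraries were fitted with edgeR 4.0.16 in R 4.3.3 (TMM, quasi-likelihood F test) without covariates, so that the groups share 1 estimate of spread. All 3 comparisons share libraries. A gene was called at an adjusted p under 0.05 over all tested genes. The SE is the log2 fold change divided by the square root of F. Counting intervals are exact binomial (95%). Log2 CPM used a prior count of 2. P values are two-sided. The fit was tested on counts simulated from its own estimates of spread. These held no outlying library, and only genes above a minimum mean level were changed. That test therefore says nothing on untreated replicate 1 or on the members with few counts.

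The members, gene lists and tests were chosen with earlier results of these data known. The text names every member, CRNN, the 3 genes nearest to each member, and up to 3 genes per list with the smallest p in CRNN against GFP and in CRNN against untreated. The further genes of the IL-1 cluster, the cell type markers, CAPN1, CASP4 and the overlapping genes were named outside that rule. The single markers, CAPN1 and CASP4 were named after their values were seen. Alternatives were RLE, upper-quartile or library-total scaling, no filter or 1 CPM in 2 libraries, DESeq2 1.42.0, limma-voom (limma 3.58.1), robust edgeR, a fit of the 2 groups compared, a replicate block, GC and length offsets (natural splines, 97.2% of tested genes with values) and each library left out.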

Additional observations from a re-analysis of the deposited data

How the results depend on the processing

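No member was called in CRNN against GFP under any alternative run. Without a filter on low counts, 3 members were called in CRNN against untreated and 3 in GFP against untreated; the cause was not tested. With each library left out in turn, between 0 and 5 members were called in each of these 2 comparisons, and the median over the members lay between -2.90 and 0.25 for CRNN against untreated, between -2.50 and 0.84 for GFP against untreated and between -1.20 and 0.39 for CRNN against GFP. Other alternatives gave medians between -2.12 and -1.37, between -1.40 and -0.50, and between -0.70 and -0.04 in the same order. Over all genes, the calls numbered 34, 152 and 195 without a filter and 21, 7 and 29 by DESeq2 for CRNN against GFP, then CRNN and GFP each against untreated, and for CRNN against GFP 13 with only these groups fitted and 1 with GC and length offsets, against 3 in the fit reported. With a library left out they ranged from 0 to 13, from 1 to 825 and from 0 to 823. The scaling moved the median log2 ratio of the untreated pair over the 10 members only between 2.99 and 3.16.

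Of 291 fold changes of single members under alternatives that keep all libraries, 9 changed sign, all of them uncalled. By limma-voom CSF2 had 0.66 for CRNN against GFP, 0.29 for CRNN against untreated and -0.37 for GFP against untreated, where DESeq2 gave -0.0039. For CRNN against GFP, IL1RN had 0.013 by limma-voom and IL18 -0.16 with the offsets. The replicate numbers were not taken to pair the libraries, since the labels name no shared source and not all 3 correlations passed 0.1: the differences between replicates 1 and 2 over 11729 genes correlated across genes with r = 0.26 for the CRNN and GFP pairs, -0.071 for CRNN with untreated and 0.19 for GFP with untreated. With the replicate block 4, 1 and 0 genes and 0 members were called, with IL1B at 0.058 and CSF2 at 0.13 for CRNN against GFP and CSF2 at 0.15 for CRNN against untreated.

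With a library left out, 25 of 162 such values changed sign. For CRNN against GFP the ranges were -0.30 to 0.24 for IL1B, -0.90 to 1.14 for IL1RN, -0.035 to 0.31 for IL18, -3.01 to 4.05 for IL36G, -2.15 to 0.39 for IL6, -1.60 to 0.29 for LIF and -1.37 to 5.98 for CSF2. For CRNN against untreated they were -3.11 to 0.40 for IL1A, -2.72 to 0.10 for IL1B, -1.14 to 0.25 for IL18, -3.75 to 0.16 for IL36G, -1.26 to 2.08 for CSF2 and -4.51 to 1.56 for PTGS2. For GFP against untreated they were -2.29 to 1.22 for IL1A, -2.66 to 0.16 for IL1B, -0.85 to 1.18 for IL1RN, -1.28 to 0.11 for IL18, -6.88 to 2.27 for IL36G, -2.50 to 1.35 for IL6, -3.74 to 0.84 for LIF, -6.40 to 2.62 for CSF2 and -6.04 to 0.028 for PTGS2. IL36G and CSF2 have a count of 0 in GFP replicate 2, so fits that rest on it give no size. Depth limits TNF, IL36G and CSF2, with at most 33 counts in a library.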
